A study of Mus musculus with 10 samples.

Results

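The 9 genes described here, S100a8, S100a9, Ngp, Camp, Ltf, Lcn2, Mpo, Elane and Itgam, are known for their expression in neutrophils and their marrow precursors, and they were taken by name from the 24421 gene rows of a table of read counts. Their mRNA was measured by poly(A)-selected, strand-specific RNA-seq of the whole main olfactory epithelium (MOE), the sheet of sensory neurons, supporting cells and glands at the back of the nasal cavity. All 10 libraries came from mice labelled C57BL/6, at postnatal day 14, of a line in which CRISPR-Cas9 removed TAAR enhancer 1 and TAAR enhancer 2, the elements next to the genes for trace amine-associated receptors, which a small set of olfactory neurons uses. There were 3 wild-type libraries (WT-1 to WT-3), 3 libraries heterozygous for the double deletion (het-1 to het-3) and 4 homozygous for it (homo-1 to homo-4). The line was made in zygotes of mice homozygous or heterozygous for the TAAR enhancer 2 deletion, which had itself been made in C57BL/6J zygotes. The mouse lines of the study are described together as mixed C57BL/6J and 129. The deletion was not limited to 1 cell type, and the tissue was used whole, with the blood cells it held.

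Neutrophils are short-lived phagocytes that mature in the bone marrow and fill their granules in a fixed order. Primary granules with myeloperoxidase and neutrophil elastase are loaded first, specific granules with lactoferrin, cathelicidin, Ngp and lipocalin 2 are loaded later, and the S100a8 and S100a9 proteins fill the cytosol of the mature cell. Some of these proteins are not made by neutrophils alone, since glands of the nose, tear duct and breast secrete lactoferrin and stressed epithelia secrete lipocalin 2.

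The libraries held 21423861 to 27712948 counts, so that 3 counts, used here as the floor of detection, correspond to 0.108 to 0.140 CPM, the counts per 1000000 counts of a library. The 15 Taar genes summed to 850 to 915 counts in the wild-type libraries, 741 to 862 in the heterozygous and 2 to 5 in the homozygous libraries, as their labels say. Y-linked genes had 5252 to 6636 counts, and Xist at most 27, in 4 libraries (WT-1, het-1, homo-2, homo-3), and the other 6 had at most 3 and at least 18079, so each genotype mixed male and female tissue. The olfactory neuron list, led by Omp and Gnal, summed to 9456 to 11304 CPM over all libraries. The labels give no batch. The study describes the mice as littermates, and p-values measure the spread between these libraries.

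In the mouse genome (mm10) S100a8 lies at chr3:90668978-90670035 on the plus strand and S100a9 at chr3:90692632-90695721 on the minus strand, 22596 bases apart with their 3′ ends facing. Camp at chr9:109847379-109849617, Ngp at chr9:110419747-110423012 and Ltf at chr9:111019271-111042767 share a stretch of chromosome 9, with 570129 bases between Camp and Ngp and 596258 between Ngp and Ltf. Lcn2 lies at chr2:32384633-32388252, Mpo at chr11:87793581-87804413, Elane at chr10:79886247-79888215 and Itgam at chr7:128062640-128118491. Exons of Mpo overlap those of the antisense gene Gm11505 and exons of Itgam overlap those of Gm49368 on the same strand, and the strand setting used in the counting is not given in the sources used here.

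C/EBP factors and PU.1 are transcription factors of the granulocyte lineage, and their core motifs were searched on both strands in the 250 bases before each RefSeq start site (GRCm38.p6). The C/EBP core TTNNGCAA occurred in 4 of the 9 windows, S100a9, Ngp, Ltf and Lcn2, against 9.56% of all 32851 windows of the same length. The PU.1 core GAGGAA occurred in 6 of the 9, S100a8, Ltf, Mpo, Elane, Itgam and Lcn2, against 23.3% of all windows. A match is a run of letters, not a bound site. The windows of the pair that varied together (S100a8 and S100a9), of 2 specific granule genes with a negative r (Ngp and Ltf) and of the surface integrin Itgam are printed 5′ to 3′ up to the first annotated base of the gene, with both motifs or their reverse complements in capitals. The stretches are chr3:90668821-90668977 (plus strand) for S100a8, chr3:90695722-90695971 (minus strand) for S100a9, chr9:110419558-110419746 (plus strand) for Ngp, chr9:111019042-111019270 (plus strand) for Ltf and chr7:128062390-128062639 (plus strand) for Itgam.
S100a8: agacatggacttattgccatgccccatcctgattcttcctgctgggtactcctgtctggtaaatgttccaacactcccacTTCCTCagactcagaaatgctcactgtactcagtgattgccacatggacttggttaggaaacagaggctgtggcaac
S100a9: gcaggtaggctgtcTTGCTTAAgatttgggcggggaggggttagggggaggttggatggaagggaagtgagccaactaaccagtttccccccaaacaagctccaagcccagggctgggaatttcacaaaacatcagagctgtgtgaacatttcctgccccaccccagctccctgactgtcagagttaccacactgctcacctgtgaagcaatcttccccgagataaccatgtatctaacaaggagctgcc
Ngp: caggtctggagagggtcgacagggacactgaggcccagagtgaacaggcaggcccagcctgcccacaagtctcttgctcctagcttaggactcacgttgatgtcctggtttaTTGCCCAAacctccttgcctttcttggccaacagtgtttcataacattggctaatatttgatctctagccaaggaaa
Ltf: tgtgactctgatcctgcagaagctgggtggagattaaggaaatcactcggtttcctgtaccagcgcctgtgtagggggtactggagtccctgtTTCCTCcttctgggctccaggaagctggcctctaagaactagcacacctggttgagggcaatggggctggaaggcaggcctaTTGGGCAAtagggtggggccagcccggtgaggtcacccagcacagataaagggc
Itgam: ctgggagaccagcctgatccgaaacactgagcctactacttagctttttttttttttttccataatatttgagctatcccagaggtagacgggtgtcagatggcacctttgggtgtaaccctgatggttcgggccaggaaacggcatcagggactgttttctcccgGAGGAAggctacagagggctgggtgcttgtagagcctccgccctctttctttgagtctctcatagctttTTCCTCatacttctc
Distances are counted from the RefSeq start site, which for S100a8 and Ltf lies past the end of the printed stretch. The match in the S100a9 window began 236 bases before the start and was a C/EBP core. The printed S100a8 stretch held a PU.1 core 170 bases before the RefSeq start. Ltf held a PU.1 core 157 bases and a C/EBP core 75 bases before the start, and Itgam held PU.1 cores 84 and 15 bases before it.

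The levels of the 9 genes per length of exon covered a wide range, and 1 gene stood far above the rest. Ltf, which codes for the iron-binding granule protein lactoferrin, had a mean of 145 CPM per kilobase (SD 68.3, n = 10), 7.13 times the level of S100a9 and above it in 10 of 10 libraries. S100a9 followed at 20.3 ± 6.16 CPM per kilobase (SD), Lcn2 at 11.2 ± 9.54 and S100a8 at 7.48 ± 2.85. The neighbours Lcn2 and S100a8 did not differ beyond their spread, since Lcn2 was the higher in 6 of 10 libraries. Ngp stood at 1.92 ± 0.804, Camp at 1.06 ± 0.596 and Itgam at 0.945 ± 0.199 CPM per kilobase. Camp was above Itgam in 5 of 10 libraries and Ngp above Camp in 7 of 10, so the order of these 3 was not the same in each library. The primary granule genes closed the order, with Mpo at 0.111 ± 0.0434 and Elane at 0.0734 ± 0.0952 CPM per kilobase.

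**Figure D1:**
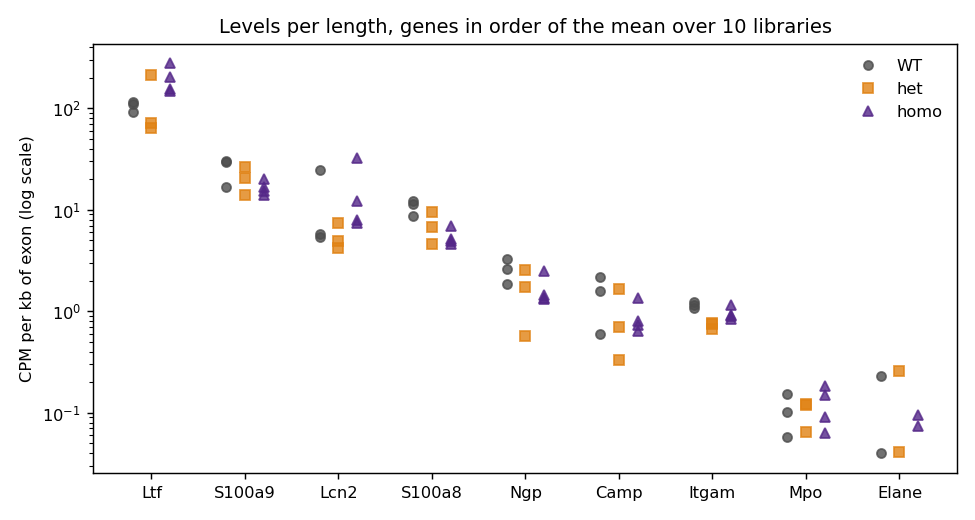
Levels of the 9 genes per kilobase of merged exon in each library, on a log scale, with the genes in order of their mean over 10 libraries and with circles for wild-type, squares for heterozygous and triangles for homozygous libraries. Ltf lies above S100a9 in every library, Lcn2 spans the range from below S100a8 to above S100a9, and 4 libraries with no Elane count are not drawn.

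Lactoferrin mRNA made up 79.2% to 96.3% of the summed counts of the 9 genes, so the sum is mainly a measure of Ltf. The sum was 429 ± 58.2 CPM in wild-type (SD, n = 3), 438 ± 280 in heterozygous (SD, n = 3) and 735 ± 188 in homozygous libraries (SD, n = 4). With Ltf and Lcn2 left out it was 31.3 ± 5.88, 22.2 ± 6.88 and 20.3 ± 1.55 CPM, so the order of the means turned round. The heterozygous libraries overlapped both other genotypes in the full sum (271 to 761 CPM) and in the sum without Ltf and Lcn2 (15.3 to 29.1 CPM). The heterozygous mean of the full sum was 277 CPM without het-1. In whole tissue, fewer cells of a type and less RNA per cell cannot be told apart.

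The variation between libraries exceeded counting error for most of the genes. The coefficient of variation over the 10 libraries was 47.1% for Ltf where counting alone gives 0.915%, 85.1% for Lcn2 against 3.67%, and 38.2% for S100a8 against 8.87%. It was 30.3% for S100a9 against 6.22%, 41.9% for Ngp against 13.2%, and 56.3% for Camp against 22.8%. Itgam was the steadiest at 21.1%, against 9.32% from counting. For Mpo the values were 39.2% and 33.1%, so most of its spread was of the size that counting error gives at 5 to 15 counts per library.

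No gene of the 9 passed the test between genotypes. Of the 9, 8 passed the filter on low counts and Elane did not. With edgeR's quasi-likelihood test and Benjamini-Hochberg adjustment over 17197 genes, 0 of the 8 had an adjusted p under 0.05 in homozygous against wild-type libraries, where 12 genes of all did (0.0698%). The count was also 0 of 8 in heterozygous against wild-type libraries, with 0 genes of all (0%), and 0 of 8 in homozygous against heterozygous libraries, with 13 of all (0.0756%). A replicate block was also fitted to wild-type and heterozygous libraries alone, where replicate 1 was the library with Y-linked counts in both. No label gives such a pairing. With this block 3 genes of all were called between these genotypes and again 0 of the 8. Across any genotype the count without the block was 0 of 8, with 12 genes of all (0.0698%). DESeq2 and limma also called 0 of them. At an unadjusted p under 0.05, 2 of the 8 were lower in homozygous than in wild-type libraries (all genes in either direction, 2.41%), 2 were lower in heterozygous than in wild-type libraries (1.92%) and 1 was higher in homozygous than in heterozygous libraries (2.48%). The median log2 fold change of the 8 was -0.45 for homozygous against wild-type, -0.66 for heterozygous against wild-type and 0.14 for homozygous against heterozygous libraries, beside 0.00012, -0.00088 and -0.00097 over all genes tested. Each of these comparisons shares a genotype with each other one.

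**Figure D2:**
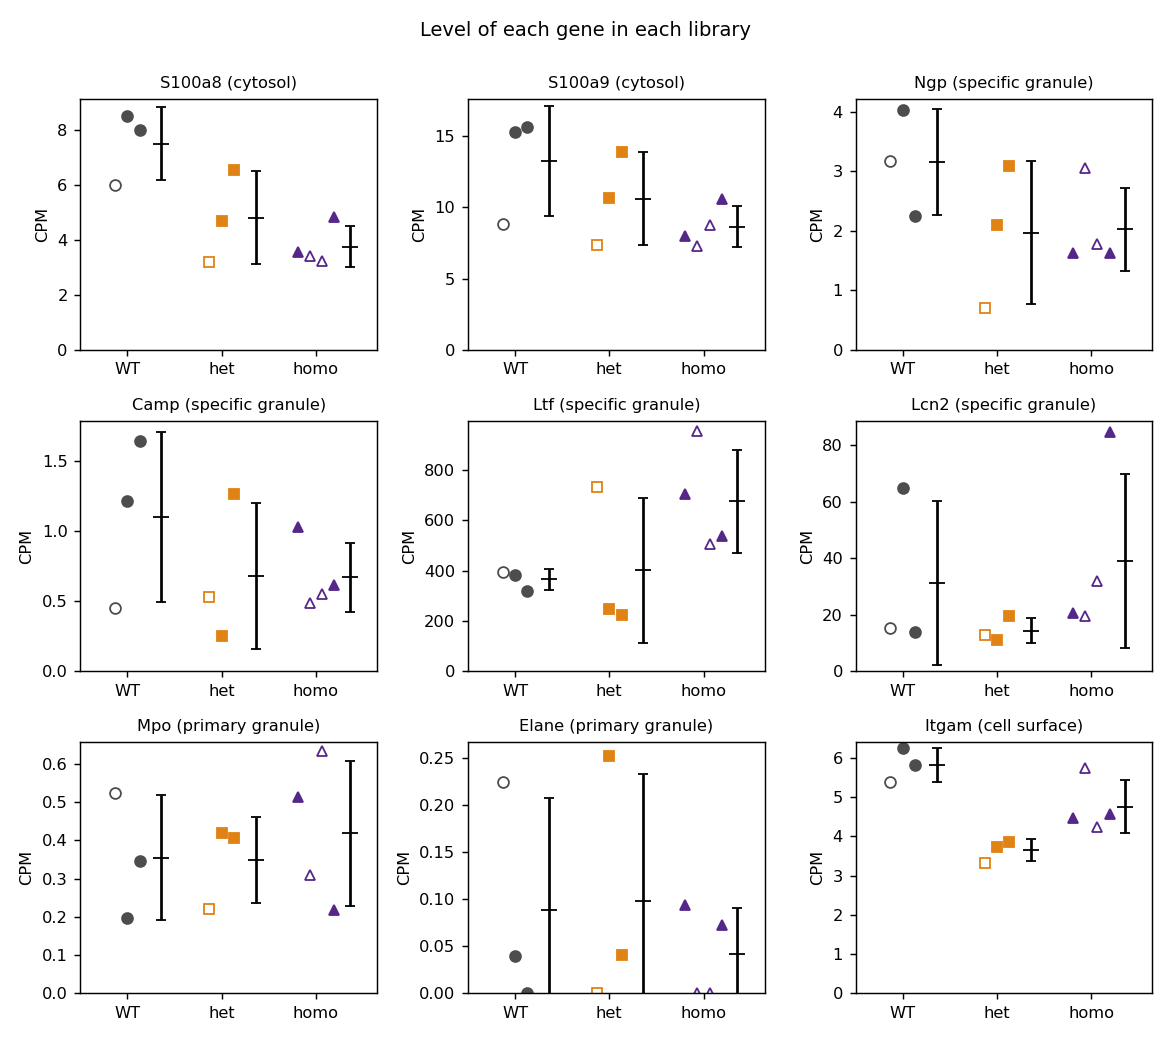
Level of each gene in CPM by genotype, 1 point per library, with the mean and SD beside each group and with open symbols for the libraries with Y-linked counts. For S100a8 all 4 homozygous libraries (3.22 to 4.84 CPM) sit below all 3 wild-type libraries (5.98 to 8.48 CPM), and for Ltf all 4 sit above them, while the SD bars of Elane are cut at 0.

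S100a8, the smaller subunit of the calcium- and zinc-binding protein calprotectin, was lowest in homozygous libraries. Its level was 5.98, 8.48 and 7.997 CPM in WT-1 to WT-3, 3.20, 4.67 and 6.55 CPM in het-1 to het-3, and 3.55, 3.41, 3.22 and 4.84 CPM in homo-1 to homo-4. All homozygous libraries lay below all wild-type libraries, a pattern that 1.85% of all tested genes showed, and the heterozygous libraries overlapped both groups. The homozygous mean of 3.75 CPM was 50.1% of the wild-type mean of 7.49 CPM. The log2 fold change was -0.99 (SE 0.22), with an unadjusted p of 0.000361, the 15th smallest among the genes tested, and an adjusted p of 0.414 (edgeR). Over the other settings tried, the adjusted p ran from 0.0518 with DESeq2 to 1.00 and the log2 fold change from -1.13 to -0.89. In heterozygous against wild-type libraries it was -0.64 (SE 0.24, adjusted p = 1.00). Het-1 to het-3 were each lower than the wild-type library that shares their number, but no label pairs these libraries, and het-3 lay above WT-1. The share of all genes with this pattern was not computed. The summed level of the mature neutrophil list, of which 15 of 16 genes matched a row, was 114 to 127 CPM in wild-type, 105 to 121 CPM in heterozygous and 106 to 126 CPM in homozygous libraries, and overlapped between all genotypes. Most of this sum is Mxd1 (48.5 CPM) and Cxcr4 (42.8 CPM), genes that other cells also use.

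Within each genotype the libraries with Y-linked counts had the lowest S100a8, as 1.38% of all tested genes did. WT-1 at 5.98 CPM lay below 7.997 CPM, het-1 at 3.20 below 4.67 CPM, and homo-2 and homo-3 at no more than 3.41 below 3.55 CPM. With a term for these libraries the log2 fold change of homozygous against wild-type libraries was -0.90 (SE 0.18, adjusted p = 0.221), and in the 6 libraries without Y-linked counts it was -0.98 (SE 0.25, adjusted p = 1.00). Both fits were added after the data were seen.

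S100a9, the other calprotectin subunit, followed the same order of means with overlapping groups. It stood at 8.82, 15.3 and 15.6 CPM in WT-1 to WT-3, at 7.33, 10.6 and 13.9 CPM in het-1 to het-3, and at 7.98, 7.30, 8.76 and 10.6 CPM in homo-1 to homo-4. WT-1 lay within the range of the homozygous libraries. Each heterozygous library lay below the wild-type library of the same number, a pairing that no label gives, and het-2 and het-3 lay above WT-1. The log2 fold change was -0.61 (SE 0.22) for homozygous and -0.32 (SE 0.23) for heterozygous against wild-type libraries, with an adjusted p of 1.00 in both (edgeR). The unadjusted p of the first was 0.0126.

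**Figure D3:**
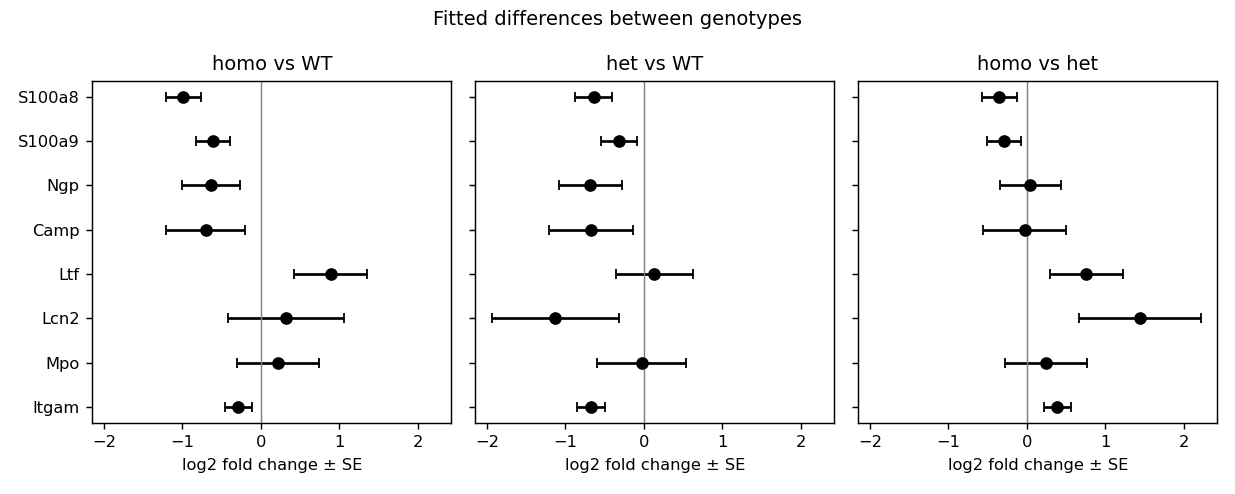
Log2 fold change of the 8 tested genes between genotypes, with the SE of the edgeR fit as bars and a line at 0. S100a8 (-0.99) and S100a9 (-0.61) lie below 0 and Ltf (0.89) above it for homozygous against wild-type libraries, the bars of Lcn2 are the widest, and no difference has an adjusted p under 0.05.

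Ngp and Camp code for cathelicidin-family proteins of the specific granule, and Camp is the precursor of the antimicrobial peptide CRAMP. Ngp was at 3.18, 4.03 and 2.25 CPM in the wild-type libraries, at 0.702, 2.103 and 3.09 CPM in the heterozygous and at 1.63, 3.05, 1.78 and 1.62 CPM in the homozygous libraries. Camp was at 0.448, 1.21 and 1.64 CPM in the wild-type libraries, at 0.526, 0.252 and 1.26 CPM in the heterozygous and at 1.03, 0.486, 0.550 and 0.613 CPM in the homozygous libraries. For both genes every pair of genotypes overlapped. The log2 fold change of homozygous against wild-type libraries was -0.64 (SE 0.37) for Ngp and -0.70 (SE 0.50) for Camp, and that of heterozygous against wild-type libraries was -0.68 (SE 0.40) and -0.67 (SE 0.54), each with an adjusted p of 1.00 (edgeR). Camp rested on 6 to 38 counts per library.

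Ltf went the other way. It was at 397, 382 and 319 CPM in WT-1 to WT-3, at 733, 249 and 223 CPM in het-1 to het-3 and at 703, 954, 508 and 537 CPM in homo-1 to homo-4. All homozygous libraries lay above all wild-type libraries, as they did for 1.7% of all tested genes, and het-1 alone of the heterozygous libraries lay within the homozygous range. The homozygous mean of 676 CPM was 185% of the wild-type mean of 366 CPM, with a log2 fold change of 0.89 (SE 0.47, adjusted p = 1.00, edgeR). Against heterozygous libraries it was 0.76 (SE 0.46, adjusted p = 1.00). Without het-1 this difference was 1.53 (SE 0.24, adjusted p = 0.0573), and in the 6 libraries without Y-linked counts it was 1.39 (SE 0.17, adjusted p = 0.00424), a fit of 2 libraries per genotype added after the data were seen. Het-1 also decides the sign of the heterozygous to wild-type difference of Ltf, which was 0.13 (SE 0.49) with it and -0.64 without it.

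The nasal gland list, 17 genes led by Bpifa1 and Obp2a, moved with Ltf, as some other lists did. It summed to 6943 to 9347 CPM in wild-type, 6795 to 8710 CPM in heterozygous and 8941 to 17009 CPM in homozygous libraries, and its part in the Ltf values was not tested. Across the 10 libraries the log2 total of the gland list had r = 0.74 with Ltf, -0.73 with S100a8 and -0.76 with S100a9, and -0.02 with Lcn2. Ltf also had r = 0.63 with the list of all leukocytes, 0.60 with monocytes and macrophages and 0.58 with basal cells. It had r = 0.54 with the B cell list and with the bone list, and its lowest value was -0.46 with the olfactory neuron list. These are descriptions over libraries that share genotype and scaling.

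Lcn2, the lipocalin that binds bacterial siderophores, was set by 2 libraries. It was at 15.3, 64.9 and 14.01 CPM in WT-1 to WT-3, at 12.9, 10.9 and 19.4 CPM in het-1 to het-3 and at 20.7, 19.6, 31.9 and 84.6 CPM in homo-1 to homo-4. WT-2 and homo-4 held the highest values, and all homozygous libraries lay above all heterozygous ones, as they did for 2.04% of all tested genes. The log2 fold change was 1.44 (SE 0.78) for homozygous against heterozygous, 0.31 (SE 0.74) for homozygous against wild-type and -1.13 (SE 0.81) for heterozygous against wild-type libraries, with an adjusted p of 1.00 in each (edgeR). Without homo-4 the homozygous to wild-type difference was -0.37, and without WT-2 it was 1.41.

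Mpo and Elane, the myeloperoxidase and the elastase of the primary granule, were near the floor. Mpo had 14, 5 and 8 counts in the wild-type, 5, 10 and 10 in the heterozygous and 11, 7, 15 and 6 in the homozygous libraries, and every pair of genotypes overlapped. Its log2 fold change was 0.22 (SE 0.52) for homozygous and -0.03 (SE 0.57) for heterozygous against wild-type libraries, with adjusted p = 1.00 in both (edgeR). Elane had 6, 1 and 0 counts in the wild-type, 0, 6 and 1 in the heterozygous and 2, 0, 0 and 2 in the homozygous libraries. Of the 10 libraries, only WT-1 and het-2 were above 3 counts, and a count of 0 allows up to 0.127 to 0.133 CPM in the 4 libraries that had none. A difference in Elane was not detectable at this depth.

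Itgam codes for CD11b, the integrin alpha chain that neutrophils share with monocytes, macrophages and NK cells. It was at 5.38, 6.26 and 5.84 CPM in WT-1 to WT-3, at 3.33, 3.74 and 3.86 CPM in het-1 to het-3 and at 4.48, 5.75, 4.23 and 4.58 CPM in homo-1 to homo-4. All heterozygous libraries lay below all wild-type libraries, as 2.28% of all tested genes did, and below all homozygous libraries, as 2.04% did. The log2 fold change of heterozygous against wild-type libraries was -0.67 (SE 0.18), with the 2nd smallest unadjusted p of all genes in that comparison, 0.00193, and an adjusted p of 1.00 (edgeR). The difference of homozygous against heterozygous libraries was 0.39 (SE 0.17, unadjusted p = 0.0393, adjusted p = 1.00). The monocyte and macrophage list, led by Fn1 (152 CPM) and Csf1r (37.9 CPM), summed to 254 to 340 CPM in wild-type libraries. It summed to 257 to 304 CPM in heterozygous and 294 to 333 CPM in homozygous libraries, and Fn1 is its largest part. The T and NK cell list, led by Gzma and Lck, summed to 6.69 to 11.1 CPM, 5.59 to 7.56 CPM and 8.34 to 10.5 CPM in the same order, with the heterozygous libraries below the homozygous. The list of eosinophils, basophils and mast cells was led by Siglecf (1.35 CPM) and Epx, with Ear6 listed at 0 in all libraries. It summed to 2.29 to 3.48 CPM, 1.85 to 2.06 CPM and 2.54 to 2.85 CPM in the same order. The heterozygous libraries lay below all others. Of the 13 genes of this list, 1 passed the filter on low counts. No share over all genes was computed for such sums. Across the 10 libraries Itgam had r = 0.15 with the monocyte and macrophage list and 0.60 with the T and NK cell list. Its r with the list of eosinophils, basophils and mast cells was 0.75. The part of these lists in the Itgam values was not tested. Itgb2, the beta chain that pairs with CD11b, had a log2 fold change of -0.29 (SE 0.18, unadjusted p = 0.128) in heterozygous against wild-type libraries.

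The genes did not vary as 1 block across the 10 libraries. Of the 28 pairs among the 8 genes that passed the filter, 18 had a positive Pearson r of log2 CPM and the median r was 0.18. By Pearson r only S100a8 and S100a9 passed a permutation test adjusted over the 28 pairs, with r = 0.905 (permutation p = 0.00062, adjusted p = 0.0174) and Spearman's rho = 0.903 (permutation p = 0.00069, adjusted p = 0.0193). Their r was 0.784 without the 2 libraries farthest from the median of S100a8, and 0.988 in the 6 libraries without Y-linked counts (exact permutation p = 0.00556), and the 4 others are too few for a value. No pair passed by Pearson r when WT-2, WT-3, het-1, homo-1, homo-2 or homo-4 was left out. After removal of the genotype means it was 0.907, with an exact permutation p within genotypes of 0.0116 and an adjusted p of 0.162. S100a9 ranked 2nd among 17196 genes by r with S100a8, and S100a8 ranked 5th by r with S100a9.

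**Figure D4:**
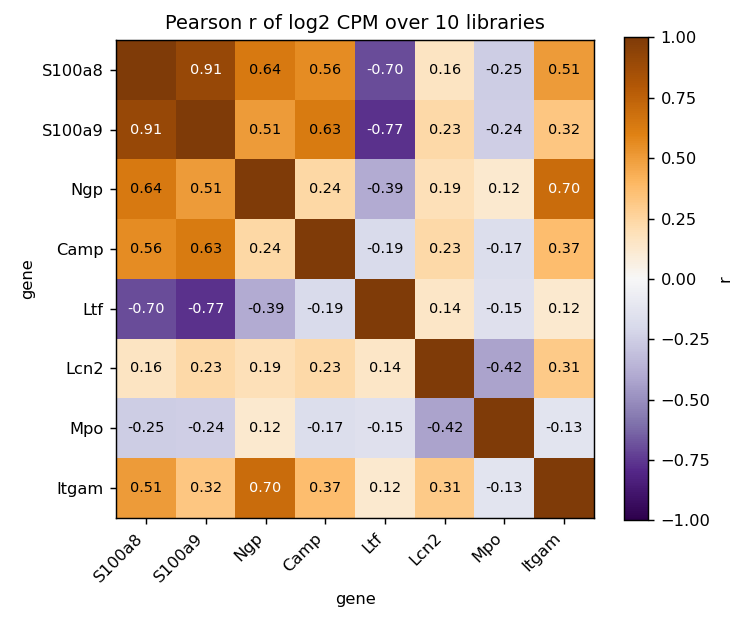
Pearson r of log2 CPM over the 10 libraries for each pair of the 8 genes that passed the filter, coloured from -1 (purple) to 1 (brown). S100a8 and S100a9 form the one strongly positive pair (0.91), Ngp and Itgam reach 0.70, and Ltf is negative with both S100 genes (-0.70 and -0.77).

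Ltf ran against the S100 genes. Its r was -0.773 with S100a9 (permutation p = 0.0106, adjusted p = 0.149) and its rho -0.855 (permutation p = 0.0031, adjusted p = 0.0435), so the pair passed by rank but not by value. By rank no pair passed without het-1, het-3, homo-1 or homo-2. The r was -0.895 without the 2 libraries farthest from the median of S100a9, -0.751 after removal of the genotype means (exact permutation p = 0.0069, adjusted p = 0.162) and -0.631 in the 6 libraries without Y-linked counts (exact permutation p = 0.179). With S100a8 the r of Ltf was -0.702 (permutation p = 0.0275, adjusted p = 0.193) and the rho -0.697 (permutation p = 0.0309, adjusted p = 0.236).

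**Figure D5:**
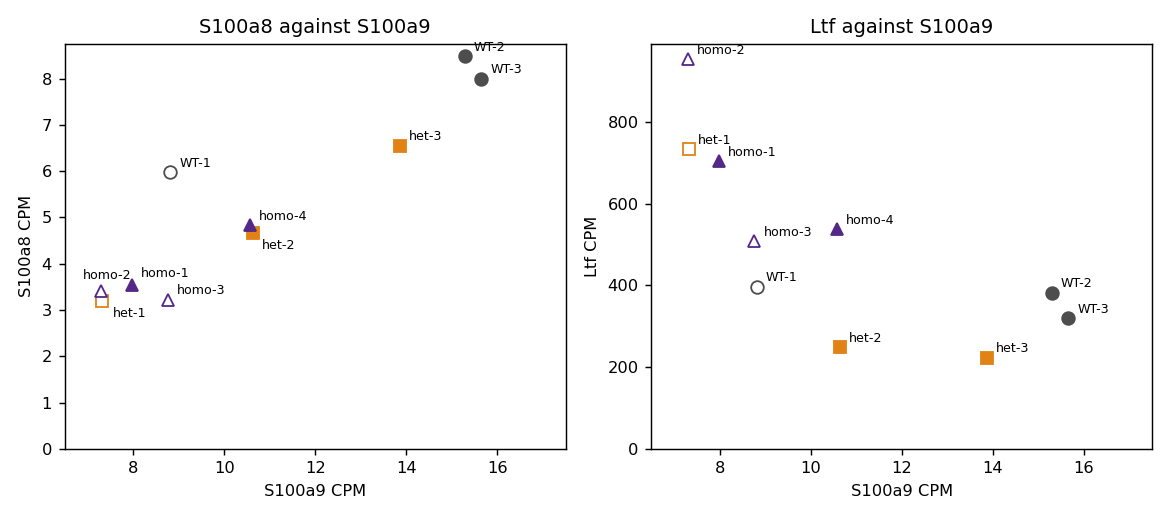
S100a8 (left) and Ltf (right) against S100a9 in CPM, 1 point per library named by genotype and replicate, with open symbols for libraries with Y-linked counts. The left points rise together (r = 0.905) with WT-2 and WT-3 at the top, and the right points fall (r = -0.773), from homo-2 at 954 CPM to WT-3 at 319 and het-3 at 223 CPM of Ltf. Both r values are of log2 TMM-scaled CPM, not of the CPM drawn.

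No pair of the specific granule genes passed the test, the 3 on chromosome 9 included. The r was 0.239 for Ngp and Camp (permutation p = 0.519, adjusted p = 0.744; rho = 0.055), -0.392 for Ngp and Ltf (permutation p = 0.264, adjusted p = 0.660; rho = -0.382) and -0.190 for Camp and Ltf (permutation p = 0.597, adjusted p = 0.744; rho = -0.309). Ngp was closer to Itgam, with r = 0.699 (permutation p = 0.0194, adjusted p = 0.181) and rho = 0.685 (permutation p = 0.0337, adjusted p = 0.236), which fell to 0.334 without the 2 libraries farthest from the median of Ngp. Ltf and Lcn2, the genes that epithelia also use, had r = 0.142 (permutation p = 0.691, adjusted p = 0.744; rho = 0.261).

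The rest of the neutrophil programme also held no gene past the threshold. Of 74 further genes in 6 lists (primary granule, secondary and gelatinase granule, mature neutrophil, transcription factors of granulopoiesis, attractants and growth factors, receptors and S100 partners), 72 matched a row and 58 were tested. None of the 58 had an adjusted p under 0.05 in any of the 3 comparisons (edgeR, and 0 by DESeq2 and limma). At an unadjusted p under 0.05, 2 were lower in homozygous than in wild-type libraries, 1 was lower and 1 higher in heterozygous than in wild-type, and 2 were higher in homozygous than in heterozygous libraries. Over all genes tested the shares in either direction were 2.41%, 1.92% and 2.48%, so these counts are no result about the lists. Of these genes, named after their values were seen, were Tnf at -1.28 (SE 0.59) and the chemokine Cxcl15 at -0.90 (SE 0.35) in the first comparison, the NADPH oxidase subunit Cyba at -0.49 (SE 0.18) and the scavenger receptor Cd36 at 0.33 (SE 0.12) in the second, and Icam1 at 0.41 (SE 0.18) in the third, on the log2 scale. The median log2 fold change of the 58 was -0.02, -0.13 and 0.04 in the 3 comparisons.

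In the primary granule list the 3 highest genes, the lysosomal enzymes Gusb (108 CPM), Hexa (80.6 CPM) and Ctsc (33.8 CPM), are used by many cell types, and 0 of its 7 tested genes had an unadjusted p under 0.05 in any comparison. The secondary and gelatinase granule list was led by Mmp9 (105 CPM), Lyz2 (90.7 CPM) and Ceacam1 (44.9 CPM), of which osteoclasts, macrophages and epithelia are also known sources. The highest genes of the mature neutrophil list were Mxd1 (48.5 CPM), the chemokine receptor Cxcr4 (42.8 CPM) and the integrin chain Itgb2 (6.37 CPM). Runx1 (50.6 CPM), Cebpa (35.97 CPM) and Klf5 (10.99 CPM) led the transcription factors, Cxcl12 (130 CPM), Cxcl5 (34.4 CPM) and Csf1 (19.5 CPM) the attractants and growth factors, and Cd36 (162 CPM), the lipocalin 2 receptor Slc22a17 (155 CPM) and the endocytic receptor Lrp2 (77.5 CPM) the receptors. These are levels per library and are not compared between genes, since they are not per length.

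The summed level of the 9 genes was read against 13 marker lists of other cell types as a description over 10 libraries that share genotype and scaling. The median r over the 13 lists was 0.54, highest for the nasal gland list at 0.70 and lowest for mature olfactory sensory neurons at -0.49. The median was 0.34 without het-2, and the olfactory neuron value -0.75 without het-2, -0.30 without homo-2 and -0.044 without the 2 libraries farthest from the median. After removal of the genotype means the gland list was at 0.40. Without Ltf and Lcn2 the median was -0.13, the gland list was at -0.61 and the mature neutrophil list at 0.63. The mature neutrophil value was 0.40 without the 2 libraries farthest from the median, and most of that sum is Mxd1 and Cxcr4, genes that other cells also use. Of the other neutrophil lists, primary granule was at -0.059, secondary and gelatinase granule at -0.18 and transcription factors at -0.18. Attractants and growth factors were at 0.41, and receptors and S100 partners at -0.495. The red cell lineage had no settled value, since it stood at 0.0018 over all libraries, 0.33 without het-1 and -0.58 after removal of the genotype means. With all 9 genes in the sum it was -0.092, and 0.45 after removal of those means. In the red cell list the globin genes Hba-a1, Hba-a2, Hbb-bs and Hbb-bt were listed at 0 in all 10 libraries while Alas2, which makes heme in red cell precursors, was at 17.1 CPM, so blood content could not be read from globin. Summed levels of the list of all leukocytes, led by Lcp1 and Laptm5, were 233 to 276 CPM in wild-type libraries. They were 234 to 246 CPM in heterozygous and 251 to 275 CPM in homozygous libraries, and the heterozygous libraries lay below the homozygous. The share of all genes with such a gap was not computed for sums, and most of this sum is Lcp1 (167 CPM). It is thus no result about leukocyte content.

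The mean of the 8 scaled profiles, in which each of the 8 takes part, so that some positive r is built in, was most like Itgam (r = 0.83) and Ngp (0.78), followed by S100a8 (0.73), Camp (0.69) and S100a9 (0.67), and was at 0.48 with Lcn2, -0.06 with Mpo and -0.25 with Ltf. The 20 other genes with the highest r to this mean were Tyrobp (0.927), the signalling adaptor of myeloid receptors, Gins2, Saysd1, Clec2d, Psmg4, Cyba, Gpr183, Rap1gds1, Rit1, Gle1, Clec5a, Nkrf, 4933421O10Rik, Fermt3, Odc1, 1700037C18Rik, Tmem160, Tex38, 2310009A05Rik and Anapc11 (0.813). Of the 20, 18 also ranked there with scaling by library totals, 14 by rank correlation and 1 after removal of the genotype means. Without 1 library the overlap was 5 to 16 of 20. It was 5 without WT-2, 7 without het-1, 11 without WT-3 or het-2 and 13 without WT-1 or homo-2.

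The nearest genes differed from member to member, by r over the 10 libraries. For Ltf they were Myo18a (0.96), Spdef (0.92), a transcription factor of secretory cells, and Col4a4 (0.92). For Lcn2 they were Cd74 (0.89), the invariant chain of MHC class II, Rbfox3 (0.87) and the MHC class II gene H2-Ab1 (0.87). Itgam was nearest to Odc1 (0.95), Tex38 (0.94) and Spib (0.90), a transcription factor of lymphoid and M cells. For S100a8 the nearest were Rap1gds1 (0.92), S100a9 and Gm9958 (0.90), and for S100a9 they were Memo1, Rpl22l1 and Brdt (0.92 to 0.91). Ngp was nearest to Samd12, Echdc3 and Ppp1r3fos (0.89 to 0.87), Camp to Cpped1, Aida and Loh12cr1 (0.91 to 0.88), and Mpo to Cnga4, Cldn10 and 9230112J17Rik (0.88 to 0.87).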

How the data were processed

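Poly(A) RNA-seq libraries of the whole MOE were used as 2 tables deposited by the authors. The authors' counts are whole reads per gene, and per the labels the processing used Trimmomatic 0.36, HISAT2 2.1.0 and featureCounts from Subread 1.6.2 with GRCm38 (mm10). The deposited normalized values, a signal scale, are those counts divided by a size factor per library (DESeq2 1.20.0), and served 1 alternative. Groups and replicate numbers came from the sample titles. The annotation and the strand setting of the counting are not given in the sources used here. Two-sided tests used edgeR 4.0.16 (TMM, filterByExpr with a minimum count of 10, robust quasi-likelihood F test over all 10 libraries with genotype as the factor, adjusted p threshold 0.05), with DESeq2 1.42.0 and limma 3.58.1 (pseudocount 1) as alternatives. Levels are CPM of library totals. Correlations used log2 TMM-scaled CPM with a prior count of 2 and 100000 permutations, or all of them where exact. Gene lengths and positions came from GENCODE M21 (mm10), and promoter windows from RefSeq. Pairs of libraries of 1 genotype differed by 14.5 to 49.3 times the variance that counting gives, so each was counted as its own sample. The scripts were tested on simulated data.

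The members and lists were chosen with earlier results of these data known. All 9 genes were named, and of each further list the 3 genes with the highest mean CPM, every gene past the threshold, the 20 genes most like the mean profile and the 3 most like each gene. Same-numbered wild-type and heterozygous libraries deviated together (r of deviations from the genotype means 0.326, 0.285 and 0.235). Homozygous libraries did not (-0.148 to 0.159 with either genotype). Libraries of unlike number were not compared, and WT-1 and het-1 were the libraries with Y-linked counts in their genotypes. Whether the numbers mark pairs was thus not tested. Alternatives were 3 scalings, 2 filters, 2 other tools, no robust estimation, the replicate block, the 2 genotypes alone and leaving out each library. One gene of the lists is not reported here.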

Additional observations from a re-analysis of the deposited data

Results flagged for a closer look

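Among the 4 homozygous libraries, 30 sets of values (the 9 genes, summed levels and lists) were examined for a library far from the others, and 2 stood out, where chance flags about 1 set in 20. For Ngp, homo-2 at 3.05 CPM lay apart from the other three, which were at 1.62 to 1.78 CPM, with a gap of 0.892 of the whole range. For the red cell lineage list, homo-1 at 45.9 CPM lay apart from 23.5 to 24.7 CPM in the others, with a gap of 0.947 of the range. The cause of neither was tested.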

How the results depend on the processing

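Counts of called genes among the 9 stayed at 0 in every setting except 2. With the replicate block in the 2 genotypes compared, where homo-4 has no partner and so adds nothing to the difference, Ltf was called in homozygous against wild-type libraries (log2 fold change 0.95, adjusted p = 0.00315) and Lcn2 in homozygous against heterozygous libraries (0.77, adjusted p = 0.00267), a count of 1 each. In only the 6 libraries without Y-linked counts, added after the data were seen, Ltf was called in homozygous against heterozygous libraries and across any genotype, again 1 each. Of the other neutrophil genes, 1 was called in homozygous against heterozygous libraries with the replicate block over 3 genotypes (Cd177, 1.15, adjusted p = 0.00991) and 1 with the block in the 2 genotypes (Cd177, 1.15, adjusted p = 0.00539). Whether the replicate numbers mark pairs was not tested, and the block over 3 genotypes moved the count of all genes from 12 to 19 and from 13 to 24. The block changed no other call among the 9 genes. The cause was not tested.

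Of 542 log2 fold changes of the 8 genes under alternatives, 506 had the same sign and stayed not called, 3 became called and 33 changed sign, in 7 of 24 gene comparisons, all with an adjusted p of at least 0.89. Under the replicate block over 3 genotypes the changed values were 0.16 for Camp (homozygous against heterozygous), -0.020 for Ltf and 0.0043 for Mpo (heterozygous against wild-type) and -0.19 for Lcn2 (homozygous against wild-type). With the replicate block in the 2 genotypes they were 0.12 for Camp, -0.090 for Ltf and -0.015 for Lcn2 in the same comparisons, and with limma 0.19 for Camp, -0.085 for Ltf and 0.020 for Mpo. With a term for Y-linked counts they were 0.11, -0.025 and 0.012 for these genes, and in the 6 libraries without such counts 0.085, -0.57 and 0.61, with -0.68 for Ngp and -0.23 for Mpo in homozygous against heterozygous libraries. Leaving out 1 library gave -0.36 to 0.52 for Ngp and -0.42 to 0.77 for Camp (homozygous against heterozygous), -0.64 to 0.43 for Ltf and -0.32 to 0.38 for Mpo (heterozygous against wild-type), -0.078 to 0.62 for Mpo and -0.37 to 1.41 for Lcn2 (homozygous against wild-type), and -0.037 to 0.49 for Mpo (homozygous against heterozygous).

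The count of correlated pairs was 2 by rank, 0 after removal of the genotype means and 0 to 2 without 1 library. The 20 most similar genes shared 1 with the list after removal of the genotype means and 5 to 16 without 1 library. The summed level without Ltf and Lcn2 was 31.3, 22.2 and 20.3 CPM in wild-type, heterozygous and homozygous libraries. No library held more than 38 counts of Camp, 15 of Mpo or 6 of Elane.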

Other observations

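Levels of some further genes of the neutrophil programme, picked after their values were seen, are given as values alone. The primary granule serine proteases Prtn3, Elane and Ctsg stood at 5.02, 0.0722 and 0.0800 CPM over the 10 libraries, and Ms4a3, a marker of granulocyte and monocyte precursors, at 0.0798 CPM. The specific granule genes Fcnb and Mmp8 stood at 0.0816 and 0.290 CPM. Cebpe and Gfi1, transcription factors of the late granulocyte programme, were at 0.118 and 0.231 CPM, and the chemokine receptor Cxcr2 and the growth factor receptor Csf3r of mature neutrophils at 2.19 and 5.86 CPM. Values are per library and not per length.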
